A study of Mus musculus with 3 samples.

Results

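The smallest cluster of the D6 paraxial mesoderm (PM) library was described against the other cells of that library. The deposited D6 table carries a cluster code for every cell in its first row, and the cluster was taken as the cells of the code held by 194 cells, which is code 6. The paper describes more D6 clusters than the table has codes, so the divisions differ, and the codes were not mapped to the paper's clusters. These were 194 of 5954 D6 cells, or 3.26% (exact binomial 95% interval 2.82 to 3.74%), and of 15827 cells in the 3 libraries of the series. Its markers were those of 2 related cell types: most of the cells were endothelial-like, and 29 cells were erythroid-like and carried embryonic globin mRNA.

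The cells came from mouse embryonic stem cells (mESCs) derived from blastocysts of ScxGFP tendon reporter mice and kept on irradiated fibroblast feeders. For D6, embryoid bodies were kept with LDN-193189, which blocks BMP receptors, at 500 nM throughout, and CHIR, a WNT agonist, was added at 5 µM from day 2 to day 6. The D10 culture was carried on from such cells with TGFβ1 at 10 ng/mL, FGF2 at 10 ng/mL and SAG, a hedgehog agonist, at 100 nM. The third library was dissociated E14.5 mouse tail. Each condition was 1 droplet library, so that no value had a biological replicate, no test was run, and the intervals below cover counting error only. Levels are in CPM, the UMIs of a gene scaled by the total UMIs of the group of cells. A gene was measured if 10% or more of the cells of 1 of the groups compared had a UMI of it, and it was called higher or lower from a ratio of 2-fold.

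Endothelial cells line blood vessels and hold together through VE-cadherin, the product of *Cdh5*, and they respond to VEGF through the receptor encoded by *Kdr*. In the mouse embryo, endothelium and the earliest red cells come from closely related *Kdr*-expressing mesoderm, under regulators that include *Etv2*, *Tal1* and *Lmo2*. Primitive red cells form in the yolk sac and use embryonic globins: *Hba-x* encodes zeta globin, and *Hbb-bh1* and *Hbb-y* encode the embryonic beta-like chains. Later red cells, from the fetal liver, use the adult genes *Hba-a1*, *Hba-a2*, *Hbb-bs* and *Hbb-bt*. Part of the embryonic endothelium, called haemogenic, also gives rise to blood cells, and *Runx1* is known for its role in that step.

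The cluster held 1895512 UMIs, with 874 to 26171 UMIs per cell (median 9118), against a median of 8118 in the other 5760 D6 cells. The median mitochondrial share was 1.58% in the cluster and 2.08% in the other cells. Scrublet called 81 doublets in the D6 library (1.36%) and 0 in the cluster, where the highest doublet score was 0.307. The D6 library shared 10 cell barcodes with the D10 library and 3 with the tail library, none of them from the cluster. The cells compared here as other D6 cells were codes 1 and 3, led by endoderm and epithelial genes, code 2, led by pluripotency genes, code 4, which held the somite genes, and code 5, which was rich in fibroblast collagens.

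The promoters of 5 genes that set the cluster apart are shown here to let the letters be read beside the values: the embryonic globins *Hba-x* and *Hbb-y*, *Klf1* and *Alas2*, which act in red cells, and *Tie1*, which acts in endothelium. Each runs from 130 bases before to 10 bases after the RefSeq start on GRCm38.p6, on the strand of the gene, at chr11:32276470-32276609 (+) for *Hba-x*, chr7:103853198-103853337 (−) for *Hbb-y*, chr8:84901852-84901991 (+) for *Klf1*, chrX:150547287-150547426 (+) for *Alas2* and chr4:118489840-118489979 (−) for *Tie1*. Capitals mark AGATAA or TGATAA (the letters GATA factors bind), CACCC (bound by the factor that *Klf1* encodes), CCAAT, and GGAAG (the core of ETS factor sites), each on either strand, and ATAAA on the strand of the gene only.
Hba-x: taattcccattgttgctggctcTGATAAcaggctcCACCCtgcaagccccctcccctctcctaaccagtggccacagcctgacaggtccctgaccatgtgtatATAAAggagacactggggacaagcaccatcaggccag
Hbb-y: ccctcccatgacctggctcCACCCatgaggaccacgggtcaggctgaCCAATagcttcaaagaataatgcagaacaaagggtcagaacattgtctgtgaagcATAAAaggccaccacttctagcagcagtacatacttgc
Klf1: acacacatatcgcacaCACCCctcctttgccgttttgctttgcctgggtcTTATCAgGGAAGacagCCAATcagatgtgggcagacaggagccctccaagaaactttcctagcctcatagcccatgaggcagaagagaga
Alas2: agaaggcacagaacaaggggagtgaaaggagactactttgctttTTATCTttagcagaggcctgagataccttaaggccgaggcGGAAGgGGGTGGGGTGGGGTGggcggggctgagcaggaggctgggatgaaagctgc
Tie1: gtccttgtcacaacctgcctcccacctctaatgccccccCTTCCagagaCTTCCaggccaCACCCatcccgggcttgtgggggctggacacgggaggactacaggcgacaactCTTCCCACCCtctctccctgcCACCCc

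In the *Hba-x* window TGATAA began at −108, CACCC at −95 and ATAAA at −27. The *Hbb-y* window held CACCC at −111, CCAAT at −83 and ATAAA at −28, and no AGATAA or TGATAA. In *Klf1* the TTATCA at −80 is TGATAA read on the other strand, and in *Alas2* the TTATCT at −86 is AGATAA read likewise. The *Tie1* window held CTTCC, which is GGAAG read on the other strand, at −91, −81 and −17, and CACCC at −70, −12 and +5. GGAAG was also in the windows of *Klf1* (−73) and *Alas2* (−46), and CACCC in *Klf1* (−114) and, as GGGTG, in *Alas2* (−40, −35 and −30). *Klf1* also held CCAAT at −64. These letters are common: of all 32851 promoter windows of this length, 8.82% held AGATAA or TGATAA, 35.4% CACCC, 23.3% CCAAT, 46.0% GGAAG and 14.0% ATAAA. Of 13 windows found for 12 of the 16 erythroid marker genes, 5 held AGATAA or TGATAA, 10 held CACCC and 5 held GGAAG. Of 16 windows found for 12 of the 23 endothelial marker genes, 2 held AGATAA or TGATAA, 6 held CACCC and 10 held GGAAG. Of 18 windows found for 13 of the 16 genes of haem synthesis and iron handling, the same letters were in 3, 9 and 11. A match describes the letters and does not show that a factor binds there.

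Of 9018 genes that passed the detection rule, 564 (6.25%) were at least 2-fold higher in the cluster than in the other D6 cells and 1120 (12.4%) were at least 2-fold lower. The authors clustered the cells on their expression, so these counts describe the cluster and are the background for the lists below. A gene nearly absent from the other D6 cells passed the detection rule only through the cluster, and could then only be called higher. The median log2 ratio over the 9018 genes was −0.11.

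Endothelial genes were higher in the cluster almost throughout. Of 21 measured members of the endothelial list, 18 were called higher, 0 lower, and 3 did not reach 2-fold, with a median log2 ratio of 6.40. *Cdh5* was at 394 CPM in the cluster and 0.76 CPM in the other D6 cells, a ratio of 517 (interval 373 to 737), and *Kdr* was at 451 against 1.14 CPM, a ratio of 395 (302 to 527). By cluster, *Cdh5* was between 0.16 CPM in code 4 and 2.37 CPM in code 5, so that none of the other 5 clusters came near code 6. The tight junction gene *Cldn5* was at 381 against 1.60 CPM (ratio 238, 189 to 304), and *Tie1*, which encodes a receptor of the angiopoietin system, was at 51.7 against 0.20 CPM (ratio 258, 135 to 556). *Emcn*, encoding the sialomucin endomucin, was at 38.0 against 0.06 CPM. *Erg*, a transcription factor of endothelium, had 86 UMIs in the cluster and 0 in the other D6 cells, at least 756-fold higher if 3 counts over the 5760 cells are taken as the floor.

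Some endothelial markers were shared with other D6 cells. *Pecam1*, an adhesion molecule of endothelium that pluripotent cells also carry, was at 238 CPM in the cluster and at 99.5 CPM in the pluripotent code 2. *Flt1*, the decoy receptor for VEGF, was at 587 CPM in the cluster but at 703 and 632 CPM in codes 1 and 3. *Sox17*, which acts in both endoderm and arterial endothelium, was at 175 CPM in the cluster against 519 and 531 CPM in codes 1 and 3. *Ramp2*, a partner of the adrenomedullin receptor, was at 242 CPM in the cluster, 266 CPM in code 1 and 354 CPM in code 4. The summed endothelial list was 4.51-fold higher in the cluster (4164 against 923 CPM, interval 4.40 to 4.62). As a description of single cells, 8 core genes were taken after their values were seen (*Cdh5*, *Kdr*, *Pecam1*, *Tie1*, *Cldn5*, *Esam*, *Egfl7* and *Ramp2*). UMIs of at least 3 of them were found in 146 of the 194 cells and in 91 of the 5760 other D6 cells, 60 of those in code 2.

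**Figure D1:**
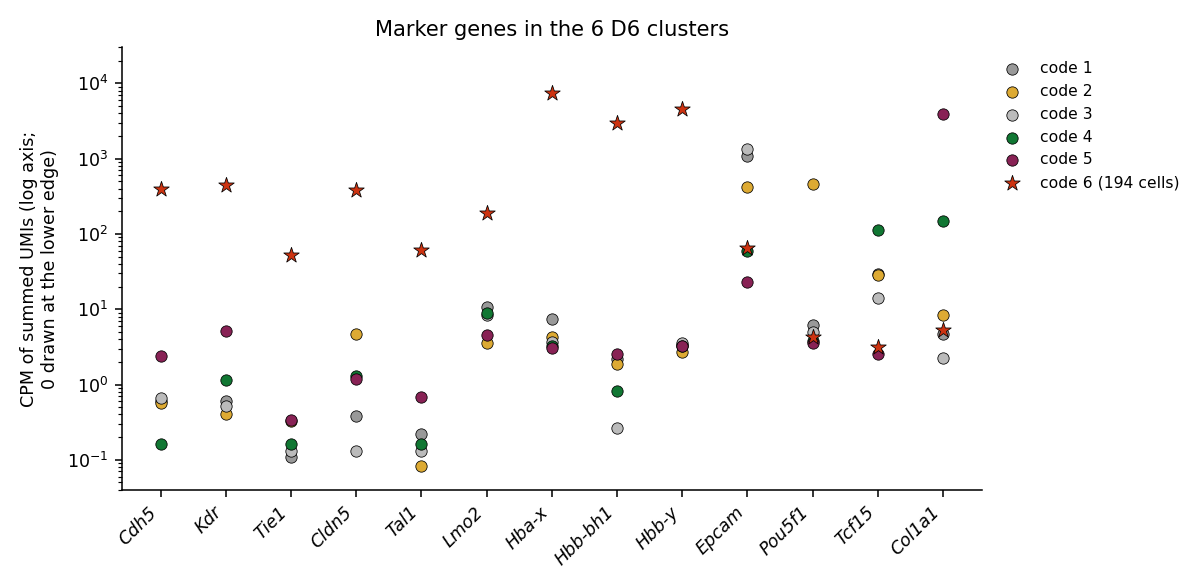
Levels of endothelial, regulator, erythroid, epithelial, pluripotency, somite and fibroblast genes in the cluster of 194 cells (stars) and in the other 5 D6 clusters (circles), in CPM on a log axis, with 0 drawn at the lower edge. *Cdh5* stands at 394 CPM in the cluster and at most 2.37 CPM elsewhere, and *Hba-x* at 7515 CPM against at most 7.48 CPM.

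Where the groups together held 100 UMIs or more of a gene, the 3 largest ratios were those of embryonic globin genes. Of 10 erythroid list genes that passed the detection rule, 10 were called higher, with a median log2 ratio of 10.35. They passed the rule through the cluster only, so they could not have been called lower. The list summed to 15671 CPM in the cluster and 12.2 CPM in the other D6 cells, a ratio of 1284 (1185 to 1393). *Hba-x* was at 7515 against 5.08 CPM (ratio 1478, 1306 to 1680), *Hbb-y* at 4604 against 3.20 CPM (1438, 1229 to 1692) and *Hbb-bh1* at 2932 against 1.70 CPM (1723, 1391 to 2161). *Alas2*, the erythroid enzyme that starts haem synthesis, was at 71.7 against 0.06 CPM. These totals came from few cells. *Hba-x* was detected in 18.6% and *Hbb-y* in 14.9% of the 194 cells, whereas *Cdh5* was detected in 62.9% and *Kdr* in 73.2%.

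To compare shares of cells at equal depth, each cell was thinned to 3000 UMIs, which left out 26 cells of the cluster and 980 other D6 cells. *Cdh5* was then detected in 57.7% of 168 cluster cells (49.9 to 65.3%) and in 0.126% of 4780 other cells. *Hba-x* was detected in 14.9% of the cluster cells (9.87 to 21.2%) and in 1.15% of the other cells. By cluster, the share of other cells with *Hba-x* ran from 0.495% in code 4 to 1.63% in code 2, and the source of these UMIs was not tested. In the 132 thinned cells of the endothelial-like sub-groups described below, *Hba-x* was found in 1 cell (0.758%, 0.0192 to 4.15%). At this depth *Cdh5* and *Hba-x* were found together in 0 of 168 cells (exact upper limit 2.17%), and *Kdr* and *Hba-x* in 1 cell.

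Regulators known from blood and vessel formation were high in the cluster. Of 13 measured genes of this list, 12 were called higher and 0 lower, and the list summed to 917 against 156 CPM. The list was chosen after the values were seen, so this count only describes the cluster. *Tal1* was at 61.2 against 0.22 CPM (ratio 278, 150 to 572) and its partner *Lmo2* at 187 against 7.67 CPM (24.4, 21.0 to 28.2). *Lyl1*, a relative of *Tal1*, was at 50.6 against 0.32 CPM, and the homeobox gene *Hhex* at 170 against 11.5 CPM. *Gata2*, which acts in blood stem and progenitor cells, was at 29.5 against 1.80 CPM. *Runx1* was less particular, at 57.0 CPM in the cluster, 25.3 CPM in the other D6 cells and 92.9 CPM in the fibroblast-rich code 5. *Kit*, the receptor for stem cell factor, was at 91.8 against 94.1 CPM. *Etv2*, which acts briefly at the start of this lineage, had 35 UMIs (18.5 against 0.82 CPM) and was found in 8.76% of the cells, under the detection rule.

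Of the haematopoietic and myeloid list, 6 measured genes were called higher and 0 lower, namely *Spi1*, *Runx1*, *Laptm5*, *Rac2*, *Gata2* and *Itga2b*. The whole list summed to 351 CPM in the cluster and 167 CPM in the other D6 cells, but to 1090 CPM in the fibroblast-rich code 5. *Ptprc*, encoding the pan-leukocyte antigen CD45, the complement genes *C1qa*, *C1qb* and *C1qc*, the platelet factor gene *Pf4*, *Cd52*, *Cd53* and *Fcer1g* all had 0 UMIs in the cluster, with an exact upper limit of 1.95 CPM each. *Coro1a* had 10 UMIs, the lysozyme gene *Lyz2* 2, and *Csf1r*, the receptor for the macrophage growth factor, and *Tyrobp* 1 each.

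Of the lists of other D6 cell types, those of pluripotency, epithelium, somite and fibroblast were mostly lower in the cluster, while those of endoderm were divided. Of the naive pluripotency list 14 of 14 measured genes were called lower, and *Nanog* had 0 UMIs in the cluster against 81.4 CPM in the other D6 cells. *Dppa5a* was at 16.4 against 1565 CPM and *Sox2* at 1.06 against 127 CPM. Of the general epithelium list 13 of 14 genes were called lower, with *Epcam* at 65.4 against 720 CPM. The somite and paraxial mesoderm list had 6 of 6 genes lower, including *Tcf15* at 3.17 CPM in the cluster and 113 CPM in code 4. The fibroblast list had 5 of 5 lower, with *Col1a1* at 5.28 CPM against 3858 CPM in code 5. Of the definitive endoderm list 7 of 10 measured genes were called lower and 1 higher, with a sum of 461 against 1554 CPM. The visceral endoderm list had 3 of 8 lower and 1 higher but summed to 3028 against 2595 CPM. *Apoe* alone made up 2700 CPM of the sum in the cluster, where *Ttr*, *Apob*, *Apom*, *Amn* and *Cubn* had 0 UMIs. The parietal endoderm list had 4 of 12 lower and 1 higher but summed to 3461 against 2386 CPM. Its sum in the cluster was above the 2817 and 2788 CPM of codes 1 and 3 and below the 4832 CPM of code 5. The female-specific RNA *Xist* had 11 UMIs in 2 cells of the cluster and was at 1152 CPM in code 5, the cluster with most fibroblast RNA.

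Of 13 measured genes of VEGF and angiopoietin signalling, 7 were called higher and 1 lower. Besides *Kdr* and *Tie1* these included *Tek*, the angiopoietin receptor (25.3 against 0.30 CPM), *Flt4*, the VEGF-C receptor (31.1 against 0.52 CPM), and the peptide ligand *Apln* (57.5 against 4.38 CPM) with its receptor *Aplnr* (ratio 13.9). *Angpt2*, an angiopoietin, was the 1 lower gene, at 2.11 against 18.8 CPM, and the ligand *Vegfa* was at 193 against 208 CPM. Of 7 Notch genes 3 were higher, the receptors *Notch1* (64.9 against 13.1 CPM) and *Notch4* (18.5 against 2.26 CPM) and the Notch target *Nrarp* (21.6 against 4.42 CPM), and 2 were lower, *Notch2* and *Hes1*.

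Of 15 BMP pathway genes 3 were higher and 6 lower. The BMP receptor inhibitor was in the medium of the cluster and of the other D6 cells alike, and its part in these levels was not tested. The higher genes were *Acvrl1* (99.7 against 6.12 CPM) and *Eng* (73.9 against 5.96 CPM), which encode a receptor and co-receptor of endothelium, and *Bambi*, a decoy receptor (45.4 against 14.3 CPM). The lower genes included the BMP targets *Id2* (6.33 against 54.1 CPM) and *Id3* (41.1 against 158 CPM) and the ligand *Bmp2*. Of 20 WNT genes 13 were lower, among them the targets *Axin2* (8.97 against 39.2 CPM), *Sp5* (19.5 against 183 CPM) and *Lef1* (10.6 against 30.1 CPM) and the inhibitor *Dkk1* (36.4 against 257 CPM). The 1 higher WNT gene was *Rspo3*, a secreted enhancer of WNT signalling, at 395 against 14.7 CPM (ratio 26.9, 24.3 to 29.9). Of 9 FGF genes 0 were higher and 5 lower, and of 14 TGF-beta and Nodal genes 2 were higher and 7 lower. These counts pool the whole cluster. In the endothelial-like cells described below, 3 of 15 BMP genes were also higher and 6 lower. Of 20 WNT genes 2 were higher and 11 lower there. The BMP list summed to 820 CPM in those cells and 143 CPM in the globin cells.

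The imprinted list divided, with 5 of 18 genes higher and 6 lower. *H19*, a growth-restricting non-coding RNA, was at 1212 against 218 CPM (ratio 5.57), *Igf2* at 32.2 against 4.50 CPM and *Mest* at 648 against 130 CPM. *Cdkn1c* (114 against 353 CPM), *Peg3* (150 against 493 CPM) and *Dlk1* (11.6 against 98.5 CPM) were among the lower. Of 26 G2 and M phase genes 0 were called either way in the pooled cells, but the list summed to between 576 CPM in code 5 and 9003 CPM in code 3, and within the cluster to between 1133 CPM in the *Cldn5* cells and 8616 CPM in the cycling cells described below. Of 20 genes of glycolysis and hypoxia, *Adm*, encoding adrenomedullin (206 CPM, ratio 7.10), and *Egln3* (221 against 70.2 CPM) were higher, and 0 were lower.

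The cluster was not uniform. Leiden clustering of its cells alone gave 5 sub-groups, each labelled with a gene or gene set: 68 *Pgk1* cells (35.1%), 52 *Cldn5* cells (26.8%), 33 cycling cells, 29 globin cells (14.9%, interval 10.2 to 20.8%) and 12 *Epcam* cells (6.19%). Median UMIs per cell were 7170.5, 8211.5, 10521, 13938 and 13908.5 in that order. At other resolutions of 0.3 and 1 the clustering gave 5 and 7 sub-groups, and the 29 globin cells stayed together at each. The other sub-groups changed in part, with an adjusted Rand index (1 for the same split) of 0.846 at 0.3 and 0.699 at 1. The level of the 8 core endothelial genes summed per cell ran from 1003 to 9180 CPM (median 5297) in *Cldn5* cells, from 153 to 5577 CPM (median 2409) in *Pgk1* cells and from 207 to 6001 CPM (median 1912) in cycling cells. In globin cells it ran from 0 to 665 CPM (median 198), overlapping only the lowest of the others.

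**Figure D2:**
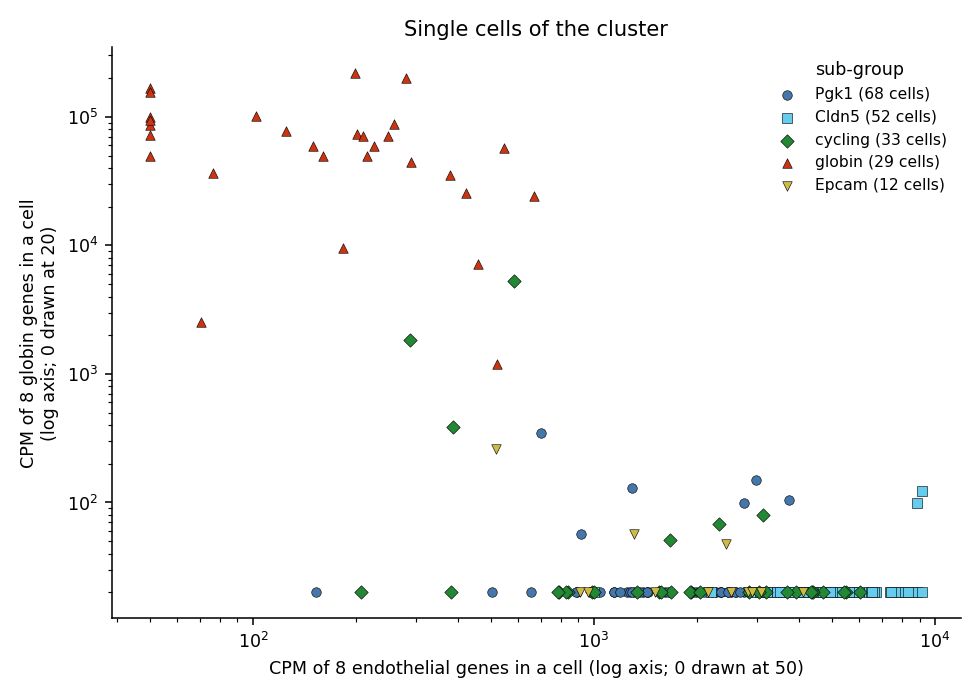
Summed level of the globin genes against that of the 8 core endothelial genes for each of the 194 cells, in CPM on log axes, coloured by sub-group, with cells at 0 drawn at the lower edge of each axis. The 29 globin cells lie at 1187 to 217989 CPM of globin mRNA and at most 665 CPM of core endothelial mRNA, and most other cells have no globin UMI.

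The *Cldn5* cells had the fullest endothelial profile. *Cdh5* was at 945 CPM in them, with UMIs in 48 of 52 cells and 0 to 26 UMIs per cell, and *Kdr* at 890 CPM, with UMIs in 52 of 52 cells. *Cldn5* was at 1116 CPM, against 172 CPM in *Pgk1* cells and 377 CPM in cycling cells, and *Emcn* at 148 CPM, against 1.95 and 18.3 CPM. Genes of vessel subtypes were concentrated there. The arterial Notch ligand *Dll4* was at 60.8 CPM, against 5.86 and 2.61 CPM, the gap junction gene *Gja4* at 129 CPM, against 37.1 and 57.5 CPM, and the lymphatic and venous gene *Flt4* at 94.8 CPM, against 13.7 and 28.8 CPM. *Lama4*, a laminin of vessel walls, was at 260 CPM, against 33.2 and 36.6 CPM. The regulators *Gata2* (7.29 CPM) and *Runx1* (12.2 CPM) were lowest among the 3 sub-groups in these cells. *Etv2* was at 21.9 CPM, from 9 UMIs in 4 cells.

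The *Pgk1* cells carried the same adhesion and receptor genes at lower levels, with *Cdh5* at 363 CPM in 46 of 68 cells and *Kdr* at 463 CPM in 51 of 68. The glycolytic gene *Pgk1* was at 6786 CPM, against 4351 CPM in *Cldn5* cells and 4058 CPM in cycling cells, and the glycolysis and hypoxia list summed to 28319 CPM, against 20402 and 19960 CPM. Among the genes leading these cells against the rest of the cluster, globin cells included, were *Sprr1a* at 266 against 4.34 CPM, the smooth muscle genes *Tagln* at 186 against 15.2 CPM and *Acta2* at 160 against 22.4 CPM, *Atf3* at 314 against 70.8 CPM, *Ctgf* at 244 against 23.1 CPM, *Cyr61* at 318 against 54.2 CPM, and *Edn1*, which encodes the vasoconstrictor endothelin, at 207 against 25.3 CPM. The smooth muscle and pericyte list summed to 424 CPM in *Pgk1* cells, 70.5 CPM in *Cldn5* cells and 170 CPM in cycling cells, beside 125 CPM in the other D6 cells. Most of these levels came from a minority of the cells. *Tagln* had UMIs in 9 of the 68 cells, *Acta2* in 10, *Sprr1a* in 13, *Ctgf* in 21, *Edn1* in 22 and *Cyr61* in 31, and the highest cell held between 17.8% (*Cyr61*) and 37.9% (*Tagln*) of the UMIs. *Atf3* was found in 45 cells, with 13.7% of its UMIs in the highest. The largest ratio, for the chemokine gene *Ccl2* (387 against 5.78 CPM), rested on 7 cells, of which 1 held 152 of the 198 UMIs. *Pgk1* cells had the lowest median UMIs of the 5 sub-groups, and the part of depth in these levels was not tested.

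The cycling cells were led by mitotic genes, with *Cenpf* at 628 against 76.7 CPM in the rest of the cluster and a median G2 and M phase sum of 7626 CPM per cell, against 1146 CPM in *Pgk1*, 847 CPM in *Cldn5* and 4534 CPM in globin cells. The sum ran from 0 to 21156 CPM over the cycling cells, with 2 cells at 0, and the S phase list was at 1995 CPM in them and 2968 CPM in globin cells. *Kdr* was found in 28 of the 33 cells and *Cdh5* in 18, and 3 cells had neither. The list of blood and vessel regulators summed to 1355 CPM in these cells, against 883 CPM in *Pgk1* and 843 CPM in *Cldn5* cells. *Tal1* was at 96.7 CPM, against 37.1 CPM in *Pgk1* and 26.7 CPM in *Cldn5* cells, *Lmo2* at 345 CPM, against 162 and 202 CPM, and *Gata2* at 68.0 CPM, against 39.1 and 7.29 CPM. UMIs of *Tal1* were in 15 and of *Gata2* in 13 of the 33 cycling cells, with 27.0% and 30.8% of them in the highest cell. Not every gene of the list was highest there, as *Itga2b* was at 23.5 CPM (9 UMIs), against 43.0 CPM (22 UMIs) in *Pgk1* and 26.7 CPM (11 UMIs) in *Cldn5* cells. The WNT enhancer *Rspo3* was at 944 CPM, against 486 and 236 CPM. *Etv2* was at 52.3 CPM, from 20 UMIs in 7 cells, of which 1 cell held 35.0%. Depth per cell was also highest in the cycling cells of these 3 sub-groups, and the part of cell cycle phase in these levels was not tested.

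**Figure D3:**
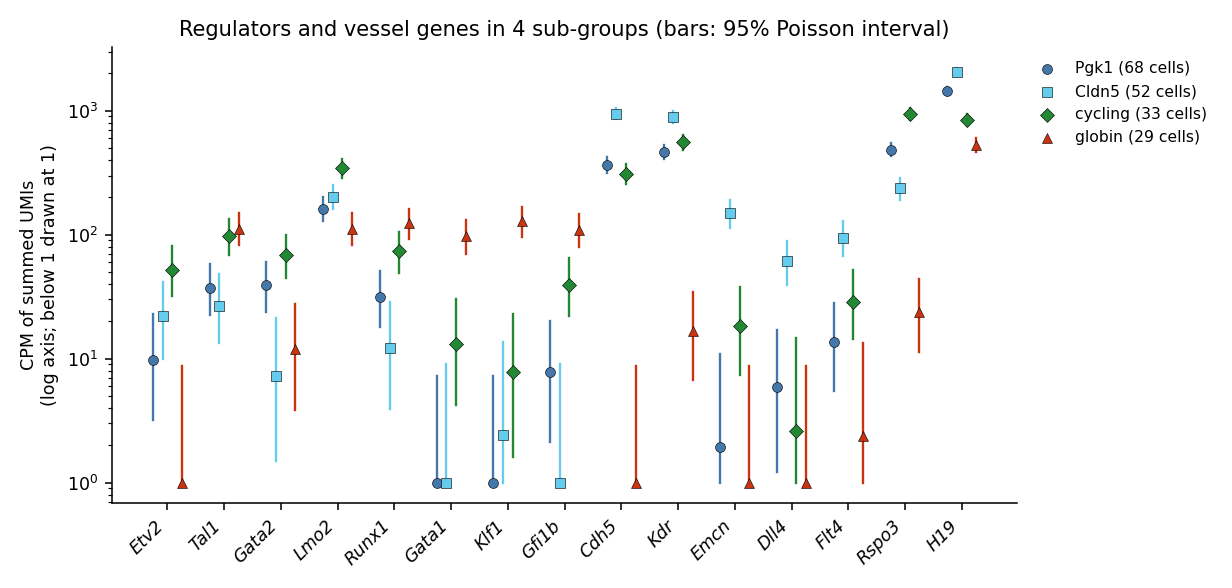
Levels of regulator and vessel genes in the *Pgk1*, *Cldn5*, cycling and globin cells, in CPM on a log axis with values below 1 drawn at 1, and exact 95% Poisson intervals as bars. *Cdh5*, *Kdr*, *Emcn*, *Dll4* and *Flt4* are highest in *Cldn5* cells, *Tal1*, *Lmo2*, *Gata2* and *Rspo3* are higher in cycling cells than in *Pgk1* or *Cldn5* cells, and globin cells have 0 UMIs of *Cdh5*.

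The 12 *Epcam* cells combined endothelial and epithelial genes. *Cdh5* was at 308 CPM, with UMIs in 10 cells, *Epcam* at 681 CPM, with UMIs in 11 cells, against 5.21 CPM in the rest of the cluster, and *Krt18* at 1587 against 18.5 CPM. Their median doublet score was 0.260, against 0.0285 to 0.0940 in the other sub-groups, although none was called a doublet, and outside their own cluster (Spearman rho 0.903 across 12501 genes) their profile was nearest to the endoderm-like code 1 (0.891). They were not counted with the endothelial-like cells below.

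The 153 *Pgk1*, *Cldn5* and cycling cells were grouped and called endothelial-like. They include 2 cycling cells with over 1000 CPM of *Hba-x* and *Hbb-bh1* together and no *Cdh5* UMI, whose globin level goes against that name. Against the other D6 cells 666 of 8933 genes (7.46%) were higher and 1265 (14.2%) lower, and of the endothelial list 19 of 22 measured genes were higher and 0 lower. Where the groups together held 100 UMIs or more of a gene, the largest ratio was that of *Adgrl4*, an adhesion receptor of endothelium (185 against 0.14 CPM, ratio 1323, 632 to 3325), followed by *Cdh5* (531 against 0.76 CPM, ratio 699). Of genes with fewer UMIs, *Emcn* had a ratio of 880 (289 to 4371), from 69 and 3 UMIs, and *Erg* was at least 1033-fold higher, from 81 and 0 UMIs. *Ctla2a*, encoding a cysteine protease inhibitor, was the most abundant of the leading genes, at 2097 against 8.27 CPM. Genes better known from other tissues were among the leaders too: the matrix gene *Hapln1* (161 against 0.36 CPM), *Gad2*, an enzyme of GABA synthesis (149 against 0.66 CPM), and the glutamate receptor gene *Gria2* (222 against 3.04 CPM). Of the arterial list 5 of 8 genes were higher and 0 lower, and of the venous and lymphatic list 7 of 8 were higher and 0 lower. These lists, too, were chosen after the values were seen. The summed arterial list was at 584 CPM over these cells, against 723 and 728 CPM in codes 1 and 3, with 1120 CPM in the *Cldn5*, 338 CPM in the *Pgk1* and 335 CPM in the cycling cells, and over the whole cluster its ratio to the other D6 cells was 1.07 (0.998 to 1.14). The summed venous and lymphatic list was at 394 CPM, against 460 CPM in code 4, with 710 CPM in the *Cldn5* cells, 205 CPM in the *Pgk1* and 309 CPM in the cycling cells.

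UMIs of blood regulators were found in part of these 153 cells. *Tal1* was found in 37 cells, of which 23 also had *Cdh5*, *Gata2* in 31 (19 with *Cdh5*), *Runx1* in 25 (12 with *Cdh5*), *Spi1* in 18 (10 with *Cdh5*) and *Gfi1b* in 9 (2 with *Cdh5*). *Cdh5* itself was found in 112 of the 153. In the other D6 cells, whose median depth was 8118 UMIs, *Runx1* was found in 13.8%, *Gata2* in 1.25%, *Spi1* in 0.521%, *Tal1* in 0.174% and *Gfi1b* in 0.0174%. *Runx1* was at 37.5 CPM in the 153 cells, 25.3 CPM in the other D6 cells and 92.9 CPM in code 5. Detection at these low counts depends on depth, so a cell without a UMI may still express the gene.

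The 29 globin cells were compared in turn with the other D6 cells and with the endothelial-like cells. Against the other D6 cells 912 of 9551 measured genes (9.55%) were higher and 2649 (27.7%) lower. Against the 153 endothelial-like cells, 1483 of 9203 genes (16.1%) were higher and 2215 (24.1%) lower. Of the erythroid list 15 of 15 measured genes were higher, and of the endothelial list 22 of 22 were lower. Most of these genes passed the detection rule only through the group in which they were higher, so the rule largely set these counts. *Cdh5*, *Cldn5* and *Emcn* had 0 UMIs in these cells, which allows a *Cdh5* UMI in up to 11.9% of such cells at this depth and sets no limit on cells that express it, and *Kdr* was found in 3 cells (16.6 CPM). The lowest ratios were those of *Ctla2a* (4.75 against 2097 CPM), *Vim*, the intermediate filament vimentin (21.4 against 5330 CPM), *Sparc*, a matrix glycoprotein with 0 UMIs against 1862 CPM, and *Col4a1*, a basement membrane collagen (14.3 against 1198 CPM). Of the contractile and cytoskeletal list 12 of 12 genes were lower, of the basement membrane list 11 of 12, of the VEGF list 11 of 12 and of the BMP list 10 of 11, with 0 higher in each. Globin mRNA was 6.88% of the UMIs of these cells, which lowers the CPM of every other gene by as much.

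Red cell regulators and the haem pathway were high in the globin cells. *Gata1*, the main erythroid transcription factor, was at 97.4 CPM with UMIs in 16 of 29 cells, against 3.83 CPM in the endothelial-like cells, and *Klf1* at 128 against 3.06 CPM, with UMIs in 18 cells. The 5 *Gata1* UMIs of the endothelial-like cells were all in 1 cycling cell. *Gfi1b* was at 109 CPM, *Tal1* at 112 against 51.3 CPM and *Runx1* at 124 against 37.5 CPM, while *Gata2* (11.9 against 37.5 CPM) and *Lmo2* (112 against 228 CPM) were lower. *Itga2b*, an integrin of early blood cells, was at 121 against 32.2 CPM. Of 16 genes of haem synthesis and iron handling 15 were higher, in a list also chosen after the values were seen. *Alas2* was at 309 against 4.59 CPM and *Cpox* at 913 against 68.9 CPM, both encoding enzymes of haem synthesis, and the 6 *Alas2* UMIs of the endothelial-like cells were all in 1 cycling cell. The transferrin receptor gene *Tfrc* was at 212 against 52.1 CPM and the ferritin gene *Fth1* at 14623 against 3926 CPM. Of 22 S phase genes 17 were higher and 0 lower, and of 26 G2 and M phase genes 7 were higher and 0 lower, with *Mki67* at 554 against 143 CPM. Against the other D6 cells 10 of 22 and 3 of 26 were higher, and 0 lower. Of the imprinted list 12 of 17 genes were lower and 0 higher, with *Mest* at 7.13 CPM.

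Few cells had intermediate globin levels. Counting *Hba-x* and *Hbb-bh1* together, 31 of the 194 cells were over 1000 CPM, from 1187 to 104629 CPM (median 47773), 10 cells had between 0 and 207 CPM, and 153 had none. The 31 were the 29 globin cells and 2 cycling cells. None of the 31 had a *Cdh5* UMI and 3 had a *Kdr* UMI, while of the other 163 cells 122 had *Cdh5* and 139 had *Kdr*. Outside the cluster 4 D6 cells were over 1000 CPM, with 650 to 956 UMIs in all and 1 to 66 UMIs of these genes, 2 of them in code 1 and 2 in code 2.

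The globin cells differed widely from each other. Their globin mRNA was 0.119 to 21.8% of their UMIs (median 5.96%), or 16 to 4394 UMIs per cell (median 665). *Hbb-bh1* was found in 29 of 29 cells, at 4 to 550 UMIs (median 153), *Hba-x* in 28, at 0 to 1664 UMIs (median 470), and *Alas2* in 24. Among these embryonic globin genes *Hbb-y* was the most uneven, at 0 to 2253 UMIs (median 19), and 1 cell held 25.8% of its UMIs. It made up 60.8% of the beta family UMIs summed over the cells but a median of 12.9% per cell (0 to 91.8%). In 19 cells *Hbb-bh1* had more UMIs than *Hbb-y* and in 10 cells fewer.

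In 7 globin cells *Hbb-y* had no UMI among 1244 UMIs of the beta family (4 to 546 per cell), although their median depth, 13480 UMIs, was near the 14087 of the other 22. Their globin share was 0.119 to 8.77% (median 2.43%), against a median of 7.16% and a lowest value of 0.715% in cells with *Hbb-y*. Over the 29 cells, the globin share and the *Hbb-y* share of the beta family had a Spearman rho of 0.61, as a description of cells of 1 library, and both measures use *Hbb-y* UMIs. The rho of globin share with UMIs per cell was 0.02. *Alas2* was at 280 CPM in cells without *Hbb-y* and 317 CPM in cells with it. In the same order, *Klf1* was at 62.3 and 148 CPM and *Gata1* at 166 and 77.1 CPM, from only 6 and 16 UMIs in the cells without *Hbb-y*.

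**Figure D4:**
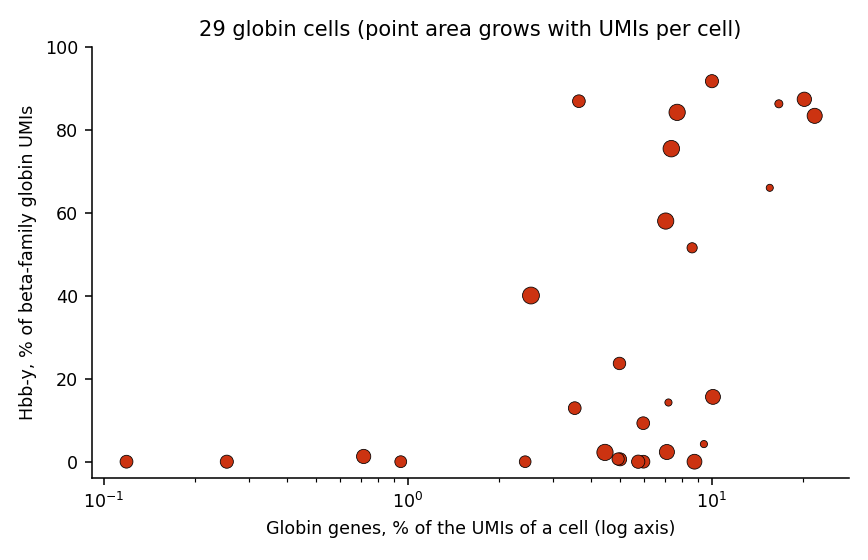
*Hbb-y* share of beta family UMIs in percent (vertical axis) against the share of UMIs from globin genes in percent (log horizontal axis) in each of the 29 globin cells, with larger points for cells with more UMIs. Cells without *Hbb-y* lie between 0.119 and 8.77% globin, and the cells with most *Hbb-y* reach 21.8% globin.

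The globin mix of these cells was set beside those of the other libraries. In the D6 globin cells 97.4% of alpha family UMIs were *Hba-x*, and of the beta family 60.8% were *Hbb-y* and 38.6% *Hbb-bh1*. Adult *Hbb-bs* and *Hbb-bt* together had 77 UMIs in 9 cells, 33 of them in 1 cell. The adult alpha gene *Hba-a1* was spread more widely, with 336 UMIs in 28 of the 29 globin cells, or 2.30% of the alpha family. In D10 cluster code 6, where 35 of 435 cells were over 1000 CPM of *Hba-x* and *Hbb-bh1*, *Hba-x* was 89.7% of the alpha family, *Hbb-y* 87.6% and *Hbb-bh1* 8.30% of the beta family. In E14.5 tail code 6, with 64 of 71 cells over that level, *Hba-x* was 44.0%, *Hbb-y* 86.4% and *Hbb-bh1* 0.123%. Tail code 12, of 128 cells, had the adult mix, with *Hba-a1* at 79.2% and *Hbb-bs* at 69.2%. The share of *Hbb-bh1* was thus highest at D6. Globin mRNA was 6.88% of the UMIs at D6, 2.76% in D10 code 6, where most cells had little, and 69.1% and 86.1% in the tail clusters. The division between *Hba-a1* and *Hba-a2*, and between *Hbb-bs* and *Hbb-bt*, is uncertain, since these pairs are near-identical and reads that matched several places had been ignored.

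**Figure D5:**
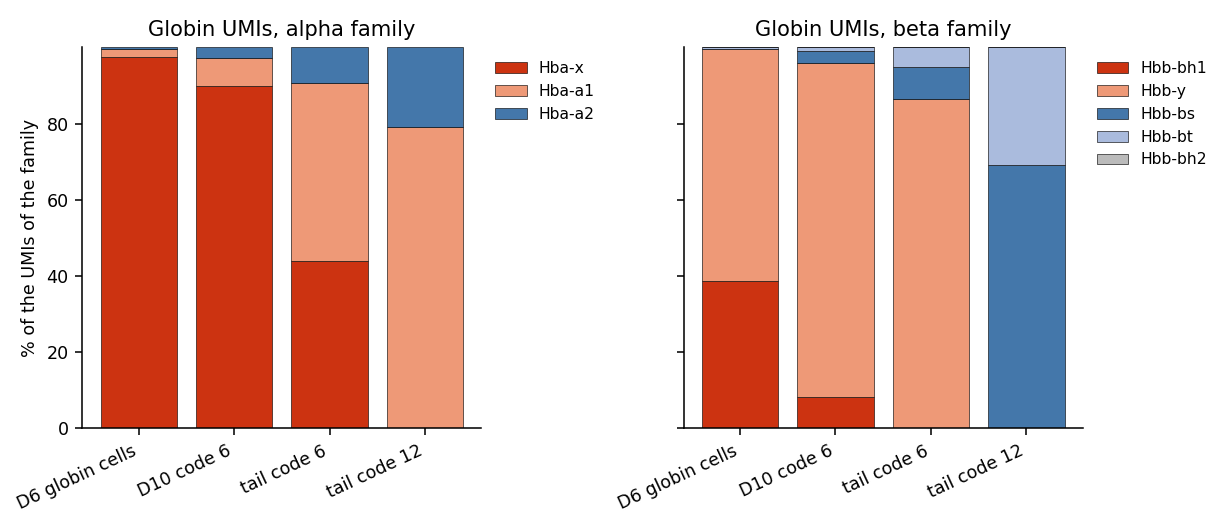
Share of each globin gene in the alpha and beta family UMIs of the D6 globin cells, D10 code 6 and E14.5 tail codes 6 and 12, in percent. *Hbb-bh1* is 38.6% of the beta family at D6, 8.30% at D10 and 0.123% in tail code 6, and tail code 12 is made up of adult globins.

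The endothelial-like cells were compared with the clusters of the other libraries in which every cell had at least 3 of the 8 core genes, D10 code 11 (58 of 58 cells) and tail code 11 (71 of 71). Across 12501 genes the D6 endothelial-like profile had a Spearman rho of 0.861 with tail code 11, 0.854 with D10 code 11 and 0.833 with D10 code 6, and 0.839 with code 1 of its own library. The *Cldn5* cells were closer to both, at 0.870 with D10 code 11 and 0.863 with tail code 11. The *Pgk1* cells were at 0.828 with D10 code 11 and 0.816 with tail code 11, and at 0.828 with code 1 of their own library. The whole cluster, globin cells included, was at 0.861 with D10 code 6, 0.850 with tail code 11 and 0.830 with D10 code 11. In its own library it was at 0.865 with code 3 and 0.860 with code 1. Among clusters of the other libraries the cycling cells were nearest to D10 code 6 (0.844) and code 5 (0.834). They were at 0.826 with tail code 11 and 0.795 with D10 code 11. In their own library they were at 0.852 with code 3 and 0.832 with code 4. The globin cells were nearest to D10 codes 5 (0.828) and 6 (0.822), and lower with the globin-rich tail codes 6 (0.682) and 12 (0.560). These are correlations across genes, which are not independent, and the libraries differ in depth.

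In the D6 endothelial-like cells, D10 code 11 and tail code 11, *Cdh5* was at 531, 831 and 1446 CPM, *Emcn* at 52.8, 194 and 856 CPM, and *Plvap*, a gene of vessel fenestrae, at 47.5, 215 and 758 CPM. *Kdr* was at 625, 576 and 959 CPM. *Etv2* had 34 UMIs at D6 and 0 UMIs in both others, with upper limits of 11.2 CPM at D10 and 2.60 CPM in tail. *Runx1* was at 37.5, 6.06 and 2.12 CPM, *Hapln1* at 161, 9.10 and 27.5 CPM and *Gad2* at 149 CPM with 0 UMIs in both others. The D6 values pool 3 sub-groups, and the order of some genes depends on which are taken. In the *Cldn5* cells alone *Cdh5* was at 945 CPM, above D10 code 11, and *Runx1* at 12.2 CPM, within the D10 interval of 0.734 to 21.9 CPM, whereas *Emcn* (148 CPM) and *Plvap* (105 CPM) were below both other libraries and *Hapln1* (165 CPM) and *Gad2* (94.8 CPM) above both. The lymphatic genes *Lyve1* (1.53, 679 and 0 CPM) and *Prox1* (49.8, 522 and 6.35 CPM) and the scavenger receptor gene *Stab1* (40.6, 509 and 93.2 CPM) were highest at D10. *Aplnr*, known from veins and sprouting vessels, was highest in tail, at 29.1, 6.06 and 443 CPM. Each library differs from the others in stage, in origin and in preparation, which cannot be told apart with 1 library each.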

How the data were processed

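The libraries were D6 PM (5954 cells, 51858825 UMIs), D10 culture (7821 cells, 53403944 UMIs) and E14.5 tail (2052 cells, 31343741 UMIs), 1 per group. The deposited values are raw UMI counts per gene and cell with the authors' cluster codes. The authors made them with Cell Ranger, ignoring reads that mapped to several places, and with Seurat 3.0 removed cells above 7.5% mitochondrial counts or in the lowest or highest 2% by transcripts per cell, the latter as likely doublets. The genome build of the counts is not given in the sources used here. Depth sets the precision of a level: at the 1895512 UMIs of the cluster, a gene with 0 UMIs has an upper limit of 1.95 CPM.

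Counts were summed per group to CPM with exact Poisson 95% intervals, and ratios carry exact conditional binomial 95% intervals, for counting error only. This calculation was tested on simulated data. A group at 0 was set to 3 counts. Doublets were scored with Scrublet (Scanpy 1.11.5, expected rate 6%) and kept. Sub-groups came from 2000 variable genes, 20 components, 15 neighbours and Leiden (leidenalg 0.10.2) at 0.5. Shares of cells with a UMI used cells thinned to 3000 UMIs. Likeness was Spearman's rho of log2(CPM + 10) over genes with at least 20 CPM in any cluster. Python 3.11.15, NumPy 2.4.6, SciPy 1.17.1, pandas 2.3.3 and Matplotlib 3.10.9 were used. Promoters are RefSeq's on GRCm38.p6.

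Named genes were the 20 highest and 10 lowest by ratio (at least 100 UMIs over both groups and 50 CPM in the higher), members of the gene lists, and genes the study names. The lists of haemogenic regulators, haem synthesis, globins and arterial, venous and lymphatic endothelium, the endothelial-like and globin groupings, and the leading genes of sub-groups were chosen after the values were seen. The cluster and lists were chosen with earlier results of these data known. The samples carry no replicates, and cells are not replicates, so no p-value was computed. Alternatives tried were other cell filters, scalings, reference cells, detection and fold rules, thinning depths, likeness measures, Leiden resolutions and the cluster without sub-groups. A few genes are not reported here.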

Additional observations from a re-analysis of the deposited data

How the results depend on the processing

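No paired analysis was possible because each group has 1 library. The endothelial list ratio of 4.51 was 5.03 as a mean over cells, 5.38 against the mean of the other D6 clusters and, in an alternative chosen after seeing the data, 5.72 without the globin cells. The erythroid list ratio of 1284 was 1482 without cells under 1000 genes, 410 as a mean over cells, 1403 against the mean of the other D6 clusters and, in alternatives chosen after seeing the data, 1408 without the *Epcam* cells and 9.61 without the globin cells, so it rests on those 29 cells. The counts of 564 higher and 1120 lower genes became 256 and 476 at 4-fold and 8131 and 3443 with no filter on detection, where 25932 genes were compared, and the lower count became 1818 with detection in 5% of cells. The share of cells with *Cdh5*, 57.7%, was 48.6% when thinned to 2000 UMIs. For the endothelial-like cells the cluster nearest in the other libraries was tail code 11 (0.861) but D10 code 11 over genes with at least 100 CPM (0.815) or by Pearson correlation (0.874), so the order of these 2 is not settled. Of 639 recomputed values of single genes and lists, 523 moved by less than their counting interval, 116 by more and 0 changed direction. Leaving out the globin cells moved 42 of these values by more and 48 by less. Genes with few UMIs, such as *Etv2* with 35, are limited by depth.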
